A study of Homo sapiens with 9 samples.

Results

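The outermost 3 Mb of the autosome arms were examined for domains of H3K9me3, trimethylated lysine 9 of histone H3, in hTERT RPE-1, a telomerase-immortalised human retinal pigment epithelial line. On each autosome the highest domain end over the 8 deposited lists was taken as the q end, and a member was a domain lying fully in the last 3 Mb before it or, except on chromosomes 13, 14, 15, 21 and 22, fully in the first 3 Mb. Chromosomes 10, 18 and 19 were left out. This gave 33 ends, 14 of p arms and 19 of q arms, spanning 99 Mb, and 3207 of the 60138 listed domains were members. The q windows were counted from the outermost listed domain, beyond which genes are annotated for up to 457 kb (at 3q). The p windows started at the first base, with up to 1017 kb before the first domain (at 9p). The cells were stable clones overexpressing LmnB1, a fusion of mCherry with the lamina protein lamin B1 (clones LmnB1_16 and LmnB1_6), or mCherry alone (clones mCherry_3 and mCherry_4). All 8 libraries came from cells given doxycycline at 0.05 ug/mL for 24 hours, with 2 biological replicates per clone, so each construct is represented by 2 clones only. Cut&Run, which cuts and releases DNA around an antibody-bound mark, was used for H3K9me3, and 1 input library from wild-type cells without treatment served all lists as the control. Expression was not among the files used, so the labelled cell type and the overexpression were not checked here.

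H3K9me3 is laid down by SUV39H and SETDB1 methyltransferases and is bound by HP1 proteins, which compact chromatin and keep it silent. In mammalian cells it marks pericentromeric repeats, telomeric and subtelomeric repeats, and gene clusters such as those of KRAB zinc finger and olfactory receptor genes, and much of it lies against the nuclear lamina, the filament mesh under the nuclear envelope to which lamin B1 belongs. Subtelomeres hold segmental duplications and fast-evolving gene families, and they also hold some of the most gene-dense stretches of the genome.

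Promoters in these ends differed in base composition according to whether a domain lay over them, and the sequences shown are chosen to let that be seen. Of 1363 protein-coding genes in the end windows, 1018 matched an entry of the RefSeq promoter table (GRCh38.p14, 250 bases before to 50 after the start). The 300-base promoter lay inside a domain in all 8 libraries for 29 of them, most of these olfactory receptor genes at 1q, and the 29 had a median GC content of 38.7% and a median of 2 CpG dinucleotides. The 901 promoters touched by no domain in any library had a median GC content of 71% and 33 CpG dinucleotides. Over all 15812 promoters of the table the medians were 62.7% and 22. All 1018 end promoters had medians of 70% and 31, so the ends as a whole stood above the table. The 250 upstream bases are given 5′ to 3′ in GRCh38.p14 coordinates, with each CpG in capitals. Upstream refers to the start in the promoter table. For ZNF140 that start lies inside the annotated gene body, so the stretch shown lies within the gene. The olfactory receptor genes OR2T6 and OR2M3, the neural adhesion gene OPCML and the KRAB zinc finger genes ZNF140 and ZNF141 stand for promoters in a domain in all 8 libraries, and the ubiquitin-like antiviral gene ISG15 and the forkhead gene FOXC1 for promoters that no domain touched.
OR2T6, chr1:248375496-248375745, plus strand: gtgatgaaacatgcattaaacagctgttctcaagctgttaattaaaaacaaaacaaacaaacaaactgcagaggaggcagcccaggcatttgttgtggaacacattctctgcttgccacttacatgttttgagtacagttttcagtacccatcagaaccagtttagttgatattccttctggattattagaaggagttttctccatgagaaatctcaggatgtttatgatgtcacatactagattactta
OR2M3, chr1:248197015-248197264, plus strand: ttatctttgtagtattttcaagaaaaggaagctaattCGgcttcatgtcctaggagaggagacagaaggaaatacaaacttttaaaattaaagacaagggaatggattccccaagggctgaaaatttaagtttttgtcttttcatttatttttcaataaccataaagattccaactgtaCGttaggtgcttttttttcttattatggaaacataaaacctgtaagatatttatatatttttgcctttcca
ZNF140, chr12:133080673-133080922, plus strand: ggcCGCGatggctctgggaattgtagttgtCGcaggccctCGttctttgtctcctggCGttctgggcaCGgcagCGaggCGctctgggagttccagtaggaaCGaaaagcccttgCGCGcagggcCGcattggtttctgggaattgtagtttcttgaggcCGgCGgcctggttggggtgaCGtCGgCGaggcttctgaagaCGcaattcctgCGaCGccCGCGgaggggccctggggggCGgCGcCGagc
ZNF141, chr4:337564-337813, plus strand: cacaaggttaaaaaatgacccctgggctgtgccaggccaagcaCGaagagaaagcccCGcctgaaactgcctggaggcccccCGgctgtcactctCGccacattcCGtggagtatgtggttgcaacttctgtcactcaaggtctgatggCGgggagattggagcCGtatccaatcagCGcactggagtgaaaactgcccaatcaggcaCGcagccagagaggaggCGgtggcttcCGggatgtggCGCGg
OPCML, chr11:133532502-133532751, minus strand: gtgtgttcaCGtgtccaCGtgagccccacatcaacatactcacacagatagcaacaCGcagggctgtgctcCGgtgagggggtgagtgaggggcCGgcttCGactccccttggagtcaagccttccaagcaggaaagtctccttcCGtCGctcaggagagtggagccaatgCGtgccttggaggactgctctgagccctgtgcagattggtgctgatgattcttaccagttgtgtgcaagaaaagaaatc
ISG15, chr1:1013247-1013496, plus strand: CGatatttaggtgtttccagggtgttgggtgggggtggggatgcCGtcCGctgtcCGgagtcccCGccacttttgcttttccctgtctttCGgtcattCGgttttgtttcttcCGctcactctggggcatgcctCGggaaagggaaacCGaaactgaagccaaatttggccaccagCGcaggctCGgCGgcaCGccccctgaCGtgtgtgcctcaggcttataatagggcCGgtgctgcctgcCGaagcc
FOXC1, chr6:1609665-1609914, plus strand: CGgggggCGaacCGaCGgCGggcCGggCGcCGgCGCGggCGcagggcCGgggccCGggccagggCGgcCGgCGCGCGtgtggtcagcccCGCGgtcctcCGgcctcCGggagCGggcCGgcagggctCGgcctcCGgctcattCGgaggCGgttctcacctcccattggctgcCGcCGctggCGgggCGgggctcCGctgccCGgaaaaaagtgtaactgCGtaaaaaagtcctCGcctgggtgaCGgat
OR2T6 has 0 CpG in this stretch, OR2M3 has 2 and OPCML 9, while ZNF140 has 25 and ZNF141 has 13, so the covered promoters shown ranged widely in CpG number. ISG15 has 17 and FOXC1 has 37, and their promoters were in no domain. The telomere repeat unit, TTAGGG or its reverse complement CCCTAA, searched on both strands, was present in 5 of the 29 promoters covered in all 8 libraries (17.2%), in 6.88% of the 901 untouched ones and in 8.63% of all promoters of the same length. In the rest of the same chromosomes, promoters inside a domain in all 8 libraries had medians of 42% GC and 3 CpG. Low GC and CpG numbers in covered promoters were thus not particular to the ends. The repeat unit was in 6.93% of these covered promoters outside the ends, against 17.2% at the ends. The share at the ends rests on 5 promoters in a set made up mostly of olfactory receptor genes at 1q, so no difference is read from it. Outside the ends, promoters in no domain had medians of 62.7% GC and 23 CpG, below the 71% and 33 of untouched end promoters. A match to these letters is a description and no binding site.

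Coverage of the end windows by member domains did not differ detectably between the constructs. Of the 99 Mb, members filled 21.2% and 20.6% with the clone LmnB1_16 (replicates 1 and 2), 21.4% and 16.5% with LmnB1_6, 22.8% and 23.2% with mCherry_3, and 19.2% and 12.8% with mCherry_4. The groups overlapped: the mean was 19.9 ± 2.34% with LmnB1 and 19.5 ± 4.80% with mCherry (SD over 4 libraries each). The means differed by 0.40 points (exact two-sided permutation test over 70 assignments of the libraries, p = 0.914). That exact test cannot go below p = 0.0286, and over whole clones it cannot go below 0.333. Counting only whole domains drops those that cross the inner border of a window, and such domains held 7.28, 5.73, 4.04 and 0.720 Mb of the windows in the LmnB1 libraries against 2.98, 2.24, 0.262 and 0.0590 Mb in the mCherry libraries, in the same order. With every covered base inside the windows counted, the means were 24.4 ± 4.99% with LmnB1 and 20.9 ± 6.09% with mCherry, and the difference of 3.49 points also stayed within the spread (exact permutation p = 0.371). Values per end and for genes below count every covered base in this way. Ends held 5.402 ± 0.568% of all bases covered in a list with LmnB1 and 5.66 ± 0.597% with mCherry (exact permutation p = 0.514). The number of members was 494, 373, 466 and 285 in the LmnB1 libraries and 397, 404, 443 and 345 in the mCherry libraries (exact permutation p = 0.886). After adjustment over the 4 measures tested, coverage, share, number and median length, every p was 0.914.

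The libraries differed in depth and in how finely their domains were divided. Sequencing depth relative to input, read from the deposited log2 values, was 0.880 to 1.01 in the LmnB1 libraries and 0.421 to 0.859 in the mCherry libraries, so depth and construct cannot be told apart here. Reads in member domains numbered between 205560 and 388841 with LmnB1 and between 124991 and 299989 with mCherry. The counts of the mCherry_3 replicates over 229 domains with identical borders did not differ beyond sampling noise (chi-square p = 0.197). Their lists did differ, with a Jaccard index (bases shared divided by bases covered in either) of 0.830 at the ends, so the pair was counted as 2 samples, and with the pair as 1 sample the difference in member coverage was 1.56 points (exact permutation p = 0.657). All p-values measure the spread between these libraries, 2 of which share each clone.

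Median member length came to 9 and 11 kb for LmnB1_16, 11 and 35 kb for LmnB1_6, 15 and 16 kb for mCherry_3, and 30 and 21 kb for mCherry_4. The constructs averaged 16.5 ± 12.4 and 20.5 ± 6.86 kb (exact permutation p = 0.6), and 3 LmnB1 libraries lay below every mCherry library while LmnB1_6 replicate 2 lay above every one. Without that library the difference was -10.2 kb (exact permutation p = 0.0857). Other domains on the same chromosomes had medians of 8 and 10 kb for LmnB1_16, 12 and 41 kb for LmnB1_6, 15 and 16 kb for mCherry_3, and 33 and 30 kb for mCherry_4. The lengths were thus a trait of each list and not of its ends alone. Member minus other medians averaged -2.125 kb, which did not pass (exact sign-flip test, p = 0.219). Domains under 10 kb made up 50.6%, 44.8%, 44.8% and 8.77% of the members in the LmnB1 libraries and 28.5%, 28.5%, 4.97% and 11.6% in the mCherry libraries. Members of at least 10 kb numbered 244, 206, 257 and 260 with LmnB1, and 284, 289, 421 and 305 with mCherry. The groups did not overlap in this count, with 83 fewer on average with LmnB1 (exact permutation p = 0.0286, the smallest the design can give, unadjusted), and without the shallowest library, mCherry_4 replicate 1, the LmnB1 mean was 50.9 lower. More of the window bases lay in border-crossing domains with LmnB1, as the megabases above show, and the part of this in the count was not tested. The count was 1 of 10 alternative settings run for the number of members, besides leaving out libraries, and gave the lowest p among them. Domains of at least 10 kb outside the ends were not counted, so nothing particular to the ends is read from it. The longest member reached 1299 kb with LmnB1 and 1364 kb with mCherry.

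**Figure D1:**
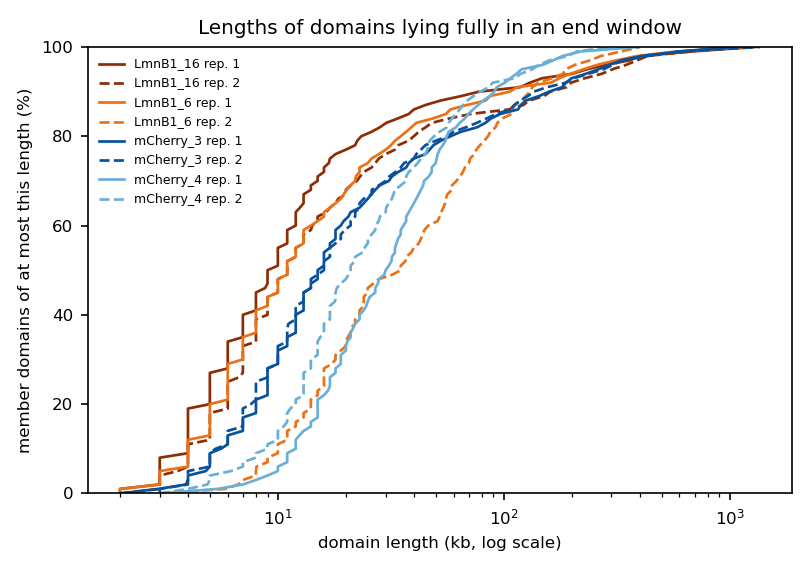
Cumulative percent of member domains (vertical axis) by length in kb on a log scale (horizontal axis), 1 line per library, LmnB1 clones in brown and orange and mCherry clones in blue, replicate 2 dashed. At the median LmnB1_6 replicate 2 stands at 35 kb and the other LmnB1 libraries at 9 to 11 kb, and the lines cross towards long domains, where its longest member is 402 kb against 921 to 1299 kb in those libraries.

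Chromosome ends were covered more than the rest of the same chromosomes in every library. The clone LmnB1_16 had 28.6% and 26.3% of its end bases covered, against 19.04% and 17.03% of the rest. For LmnB1_6 the ends stood at 25.5% and 17.2%, against 21.2% and 12.6%. The mCherry_3 libraries reached 25.8% and 25.5% at the ends, against 16.1% and 16.1% in the rest, and those of mCherry_4 reached 19.5% and 12.9%, against 13.2% and 10.4%. The ends thus averaged 22.7 ± 5.48% and the rest 15.7 ± 3.55% (SD, n = 8), a difference of 6.95 points that was positive in 8 of 8 libraries (exact two-sided sign-flip test, p = 0.0078, adjusted over 4 such tests 0.0104). Over the 4 clone means the same test gives 0.125, its lowest possible value. Each q window ends on a listed domain by rule, so uncovered bases beyond it are left out of the ends. The part of this in the difference was not tested. The p ends, whose windows start at the first base, averaged 19.6% with 3p among them, against 15.7% in the rest. The end 3p, covered at 95.6% on average, carried part of the difference. Without 3p as an end, its bases then counted with the rest, the difference was 4.58 points. The rest of the chromosomes includes 33 windows of 3 Mb in which no library had a domain. With the median over windows in place of pooled bases, which those windows touch less, the difference was 10.6 points and again positive in 8 of 8 libraries. Windows over 50% covered on average were 5 of the 33 ends (15.2%) and 76 of 833 other windows (9.12%), and windows under 5% were 11 of 33 ends (33.3%) and 437 of the 833 (52.5%). No difference between the constructs was detected in this contrast, which was 6.93 ± 2.89 points with LmnB1 and 6.97 ± 3.34 with mCherry (exact permutation p = 0.943). The median log2 enrichment over input of the members, the authors' value per domain, also exceeded that of all domains of the same list in 8 of 8 lists, by most in LmnB1_16 replicate 1 (1.25 against 1.15) and by least in mCherry_4 replicate 2 (0.74 against 0.72).

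**Figure D2:**
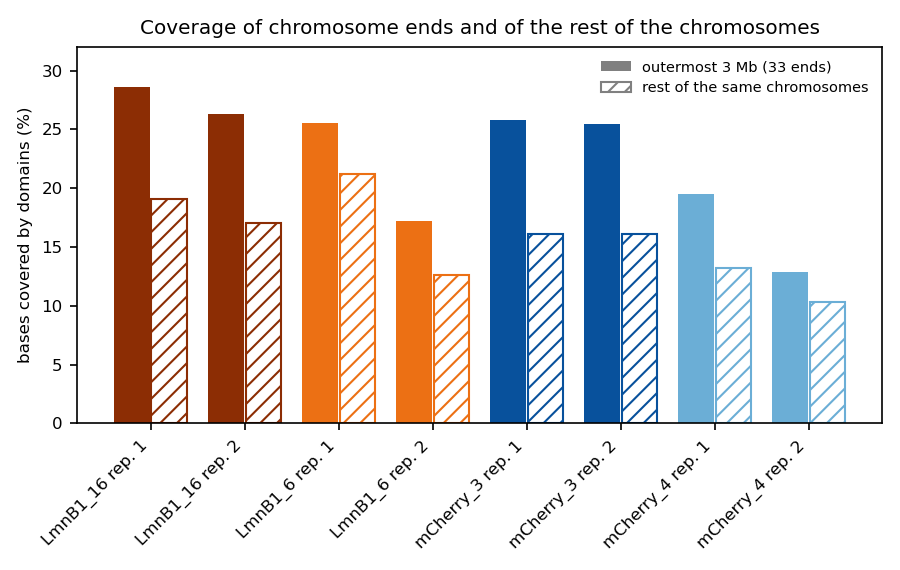
Percent of bases covered by H3K9me3 domains (vertical axis) in the outermost 3 Mb of 33 chromosome ends (filled bars) and in the rest of the same chromosomes (hatched bars), for each library on the horizontal axis. The filled bar is the higher of the pair in 8 of 8 libraries.

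Coverage varied with distance from the end. In steps of 250 kb the mean over all ends was lowest between 500 and 750 kb, at 18.6 ± 2.07% for LmnB1 libraries and 15.7 ± 3.07% for mCherry libraries. The first 250 kb were covered to 25.2 ± 5.002% with LmnB1 and 20.8 ± 6.22% with mCherry. The p ends were covered less than the q ends, 19.6 ± 4.64% against 25.1 ± 6.13%, in 8 of 8 libraries (exact sign-flip test, p = 0.0078, adjusted 0.0104). This contrast depends on the window: it was -5.57 points with 3 Mb, -9.10 with 1 Mb and 1.21 with 5 Mb, where it no longer passed (exact sign-flip p = 0.0703). It grew to -13.0 points without chromosome 3, that is, with both 3p, the most covered end, and 3q left out. The arms were not anchored alike, since p windows include the bases before the first domain. With p windows also counted from the outermost listed domain, a choice made after seeing the data, the contrast was -4.55 points and negative in 8 of 8 libraries. The p minus q difference was -7.01 ± 1.78 points with LmnB1 and -4.13 ± 1.47 with mCherry (exact permutation p = 0.0571).

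**Figure D3:**
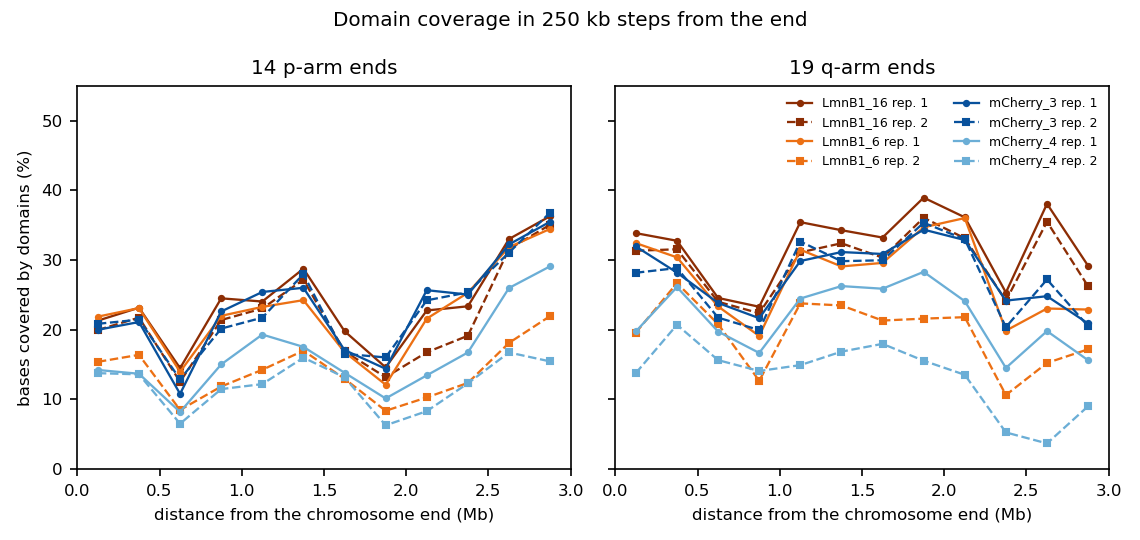
Percent of bases covered by domains (vertical axis) in 250 kb steps of distance from the end in Mb (horizontal axis), over 14 p-arm ends (left) and 19 q-arm ends (right), 1 line per library, LmnB1 clones in brown and orange and mCherry clones in blue. LmnB1_6 replicate 2 and both mCherry_4 libraries lie lowest at most distances, and all libraries dip between 0.5 and 0.75 Mb on p arms.

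Single ends ranged from almost full to almost empty in every library. The end 3p was the most covered, at 99.5%, 99.5%, 99.3% and 89.8% in the LmnB1 libraries and 98.5%, 98.8%, 90.1% and 89.2% in the mCherry libraries. It holds 2 protein-coding genes, CHL1 (chr3:196763-409417) and CNTN6 (chr3:1093024-1404217), which encode neural cell adhesion molecules of the immunoglobulin superfamily. CHL1 was covered at 100% in 3 LmnB1 libraries and 91.8% in LmnB1_6 replicate 2, and at 100%, 100%, 80.6% and 93.7% in the mCherry libraries. In LmnB1_16 a domain of about 3 Mb, 3070 kb in replicate 1 and 3068 kb in replicate 2, ran through the whole window and past its inner border, so the end had 0 members there. In mCherry_4 the same stretch was divided into 38 and 34 members.

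The end 4q followed with 89.8%, 82.9%, 71.1% and 38.2% in the LmnB1 libraries and 63.9%, 57.8%, 61.7% and 47.7% in the mCherry libraries. The LmnB1 values lay on both sides of the mCherry values, and the 12.7-point difference of the means did not pass (limma on all 3 Mb windows, adjusted p = 0.997). Next came 22q with 65.3%, 63.9%, 63.3% and 57.5% in the LmnB1 libraries and 64.0%, 65.2%, 50.5% and 17.5% in the mCherry libraries. The end 11q was covered between 49.6% and 65.8% with LmnB1 and between 34.2% and 57.8% with mCherry. For 6q the ranges were 48.9% to 64.7% with LmnB1 and 29.3% to 56.1% with mCherry, and for 2p 28.3% to 56.2% with LmnB1 and 13.5% to 58.7% with mCherry. In all 5 of these ends mCherry_4 replicate 2 or LmnB1_6 replicate 2 was the lowest library. At the other extreme stood 17p, at 1.33%, 0.8%, 0.833% and 0.367% with LmnB1 and 1.5%, 1.1%, 0% and 0.2% with mCherry. The end 16p had the most protein-coding genes, 131, and was covered between 0.267% and 3.70% with LmnB1 and between 0% and 2.77% with mCherry. Across the 33 ends the number of protein-coding genes and the mean covered percent had a Spearman rho of -0.53 and a Pearson r of -0.56, given as a description, since ends share libraries and differ in base composition.

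**Figure D4:**
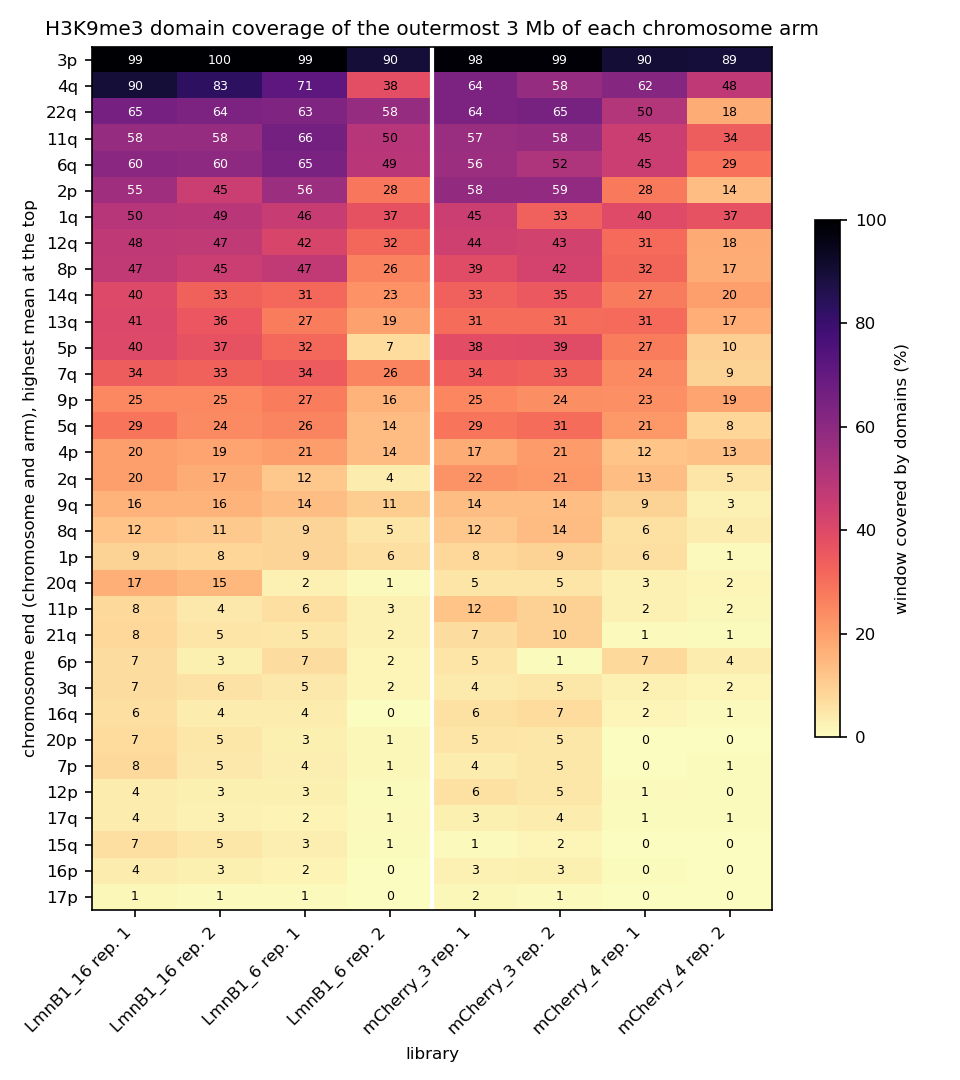
Percent of each 3 Mb end window covered by domains (colour and printed value), with the 33 ends as rows ordered by mean and the 8 libraries as columns, LmnB1 left of mCherry. The order runs from 3p, covered at 89.2% or more in every library, to 17p, covered at 1.5% or less in every library.

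No end separated the constructs. The LmnB1 mean was higher at 29 of 33 ends and lower at 4, with a median difference of 1.97 points, but the 2 groups of libraries overlapped at 33 of 33 ends. With each library's mean subtracted, 10 of the 22 ends with a mean of at least 5% were higher with LmnB1 and 12 lower, with a median difference of -0.59 points. Over the 510 windows of 3 Mb genome-wide with a mean of at least 5%, the groups did not overlap with LmnB1 above in 16.5% and with LmnB1 below in 0.392%, and among the 22 ends that passed this filter in 0. In limma, with the clone as a random block, windows higher with LmnB1 made up 0% and windows lower with LmnB1 0% of those tested at an adjusted p of 0.05. At an unadjusted p under 0.05 limma had 28 windows genome-wide, none of them among the 22 ends. With every window of a mean above 0 tested, which brings in the other 11 ends, limma called 0 of the 33, and 0 had an unadjusted p under 0.05. The largest mean differences in favour of LmnB1 were 13.2 points at 22q, 12.9 at 6q and 12.7 at 4q, and those in favour of mCherry were -2.42 at 2q, -1.19 at 11p and -0.41 at 12p. The least covered ends behaved alike: 15q had 6.53%, 4.77%, 3.33% and 0.533% with LmnB1, and 0.833%, 1.57%, 0% and 0.133% with mCherry.

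One block at an end marked a single clone. At 20q coverage stood at 16.5% and 15.1% with LmnB1_16, 2.4% and 0.833% with LmnB1_6, 5.33% and 5.23% with mCherry_3, and 2.7% and 1.67% with mCherry_4. Most of the surplus lay over CDH4 (chr20:61252261-61940617), which encodes the calcium-dependent adhesion protein R-cadherin. For CDH4 the values were 61.5% and 57.2% with LmnB1_16, 2.03% and 0% with LmnB1_6, 3.34% and 2.18% with mCherry_3, and 5.52% and 1.89% with mCherry_4. LmnB1_6 lay below mCherry_3 in both measures, so the LmnB1 clones did not share the block.

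**Figure D5:**
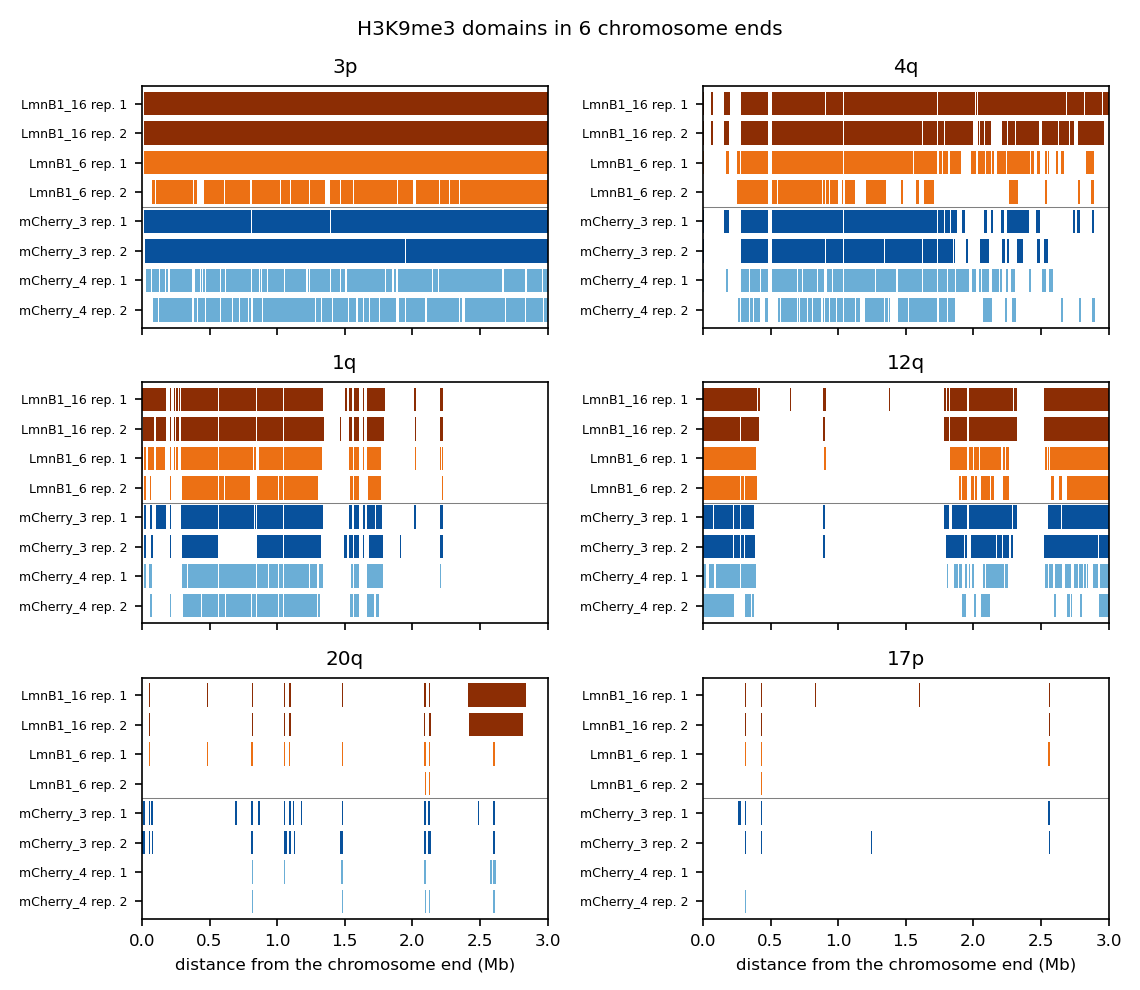
H3K9me3 domains (bars) by distance from the chromosome end in Mb (horizontal axis) in 6 ends, 1 row per library, LmnB1 clones in brown and orange above mCherry clones in blue. The end 3p is filled in all rows, 1q and 12q show blocks shared by all rows, 17p is nearly empty, and the block between about 2.4 and 2.8 Mb at 20q stands in the LmnB1_16 rows alone.

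Much of the end coverage was common to all libraries. Of the 32.5 Mb of end bases covered in any library, 8.64 Mb (26.6%) were covered in all 8 and 3.51 Mb (10.8%) in 1 only, against 22.7% and 17.97% in the rest of the chromosomes. Joining the members of all lists gave 555 regions in the ends. Of these, 58 held a member from all 8 libraries, with a median length of 184 kb, and 134 from 1, with a median of 7.5 kb. A joined region grows with the lists that add to it, so these 2 lengths are not compared. Holding a member is not full coverage: the 4q region below was covered between 13.4% and 97.0%. The 6 longest regions with members in all 8 libraries lay at 6q (chr6:168238001-169551000, 1313 kb, over DACT2, SMOC2, THBS2 and WDR27), 11q (chr11:132946001-134069000, over OPCML, SPATA19 and IGSF9B, and chr11:134295001-135076000, over GLB1L3, GLB1L2 and B3GAT1), 2p (chr2:1927001-2993000, over the neural transcription factor gene MYT1L), 4q (chr4:187217001-188151000, over ZFP42, TRIML2 and TRIML1) and 7q (chr7:157637001-158473000, over the phosphatase gene PTPRN2). Coordinates are those of the lists, on GRCh38. The region at 6q was covered at 95.3 ± 7.10% with LmnB1 and 77.7 ± 16.1% with mCherry, and that at 4q at 61.8 ± 36.8% with LmnB1 and 24.97 ± 7.11% with mCherry (SD, n = 4 each). Bases covered in all 4 libraries of LmnB1 and in none of mCherry came to 59 kb in 12 stretches, the longest of 11 kb at 3q, and the reverse to 0 kb. In the rest of the chromosomes the same sums were 6691 and 631 kb. As shares of the bases covered in any library, those only with LmnB1 made up 0.181% at the ends and 1.04% in the rest, and those only with mCherry 0% at the ends and 0.0982% in the rest. Shared bases divided by bases covered in either averaged 0.723 between replicates of a clone, 0.628 between clones of one construct and 0.653 between constructs.

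Genes in the ends were more often covered over most of their body than genes in the rest of the chromosomes, and the end 1q carried most of that excess. Gene positions are starts and ends only, so exons, introns and UTRs are not told apart. At least 50% of the gene body was covered for 9.46%, 8.14%, 7.85% and 5.94% of the 1363 end genes in the LmnB1 libraries and for 7.70%, 7.85%, 6.24% and 4.70% in the mCherry libraries. The mean of 7.24% was 3.11 points above the 4.13% of genes elsewhere on the same chromosomes, higher in 8 of 8 libraries (exact sign-flip test, p = 0.0078, adjusted 0.0104). The end 1q held 29 to 47 of these genes per library among its 56. Without 1q, left out after its values were seen, the mean over the other 1307 end genes was 4.53%, a difference of 0.41 points that did not pass (exact sign-flip p = 0.117). It was positive in 6 of 8 libraries and negative in LmnB1_6 replicate 1 and mCherry_4 replicate 2. In counts over all ends, 107 ± 19.8 genes with LmnB1 and 90.2 ± 20.1 with mCherry passed 50% (SD, n = 4 each, exact permutation p = 0.314). At the same time 1064 of the 1363 (78.1%) had no covered base in any library, close to the 79.6% elsewhere. The 29 genes covered at 90% or more in all 8 libraries (2.13%, against 0.625% elsewhere) sat in 5 ends, 19 at 1q, 4 at 12q, 3 at 4p, 2 at 5q and 1 at 6q.

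Olfactory receptor genes, which encode the odorant receptors of sensory neurons in the nose, made up most of them. Of 53 in the ends, 43 lie at 1q, and 18 of these were covered at 90% or more in all 8 libraries, among them OR2G2, OR2G3, OR14L1, OR13G1, OR6F1, OR14K1, OR2M3, OR2M4 and OR2T6, each at 100% in every library. The other 10, including the OR4F genes of duplicated subtelomeric sequence at 1p, 8p and 15q, were at 0 in every library. These genes have near-identical copies whose treatment in mapping the sources used here do not give, so a 0 there is uncertain. In the rest of the chromosomes 147 of 314 olfactory receptor genes had a mean of at least 5%, and 24 reached 90% in all 8 libraries. In the ends these numbers were 41 and 18 of the 53, so covered olfactory receptor genes were not particular to the ends. OR2T27 (chr1:248649838-248655528) and OR2T3 were covered at 100% in LmnB1_16 replicates 1 and 2 and in LmnB1_6 replicate 1, at 0% in LmnB1_6 replicate 2, and at 0% in the 4 mCherry libraries. OR14I1 had 83.8%, 100%, 68.5% and 7.56% with LmnB1, and 0%, 0%, 15.7% and 0% with mCherry. The groups thus overlapped, and limma gave adjusted p-values of 0.909 for OR14I1 and OR2T27. Without LmnB1_6 replicate 2, the lowest LmnB1 library there, OR2T3, OR2T27 and OR14I1 passed (limma adjusted p of 2.88e-07, 2.88e-07 and 0.0295). Leaving it out removes the overlap and, for OR2T3 and OR2T27, all spread within the groups. These p-values therefore give no support to a difference. In that setting limma called 56 genes higher and 3 lower with LmnB1 of 2335 tested, and 6 of 217 end genes. OR2L8 and its neighbours were at 100% in 7 libraries and at 0% in mCherry_3 replicate 2, which lacked a block there.

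Zinc finger genes, many of which encode KRAB repressors that recruit SETDB1 through KAP1, formed the other covered group. Of 44 with such a symbol in the ends, 32 had a mean of at least 5% and 8 were covered at 90% or more in all 8 libraries, while 12 had no covered base. The 90% group was ZNF10, ZNF84, ZNF140 and ZNF891 at 12q, ZNF141 and ZNF732 at 4p, and ZNF354C and ZNF879 at 5q. ZNF140 (chr12:133080425-133107428), ZNF141 (chr4:337814-384868) and ZNF354C (chr5:179060373-179083977) were at 100% in all 8 libraries. The end 12q, with 7 of these genes near its tip, was covered at 47.7%, 47.4%, 41.5% and 31.9% in the LmnB1 libraries and 44.1%, 43.2%, 31.2% and 17.6% in the mCherry libraries. Over the 44 the median covered percent was 64.2 with LmnB1 and 46.3 with mCherry, beside medians of 0 and 0 over all end genes. The median of the per-gene differences was 1.29 points. In the rest of the chromosomes 79 of 224 genes with such symbols reached 5% and 2 reached 90% in all 8 libraries.

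Neural adhesion, synaptic and channel genes of the ends split into covered and untouched. Of 18 such genes, 9 had a mean of at least 5% and 8 were at 0 in all libraries. PTPRN2, a receptor-type phosphatase of secretory vesicles, was covered at 75.5%, 74.7%, 74.4% and 56.4% in the LmnB1 libraries and 76.9%, 72.7%, 55.1% and 18.3% in the mCherry libraries. DLGAP2, a postsynaptic scaffold gene, had 67.4 ± 14.3% with LmnB1 and 48.0 ± 22.8% with mCherry. MYT1L, a neuronal transcription factor, ranged from 5.90% to 64.6% with LmnB1 and from 4.61% to 73.8% with mCherry. SHANK3, a postsynaptic scaffold, CHRNA4, an acetylcholine receptor subunit, and GRIN1, a glutamate receptor subunit, had no covered base in any library.

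In the region of 4q35 that precedes the D4Z4 repeats of facioscapulohumeral dystrophy, 3 of 5 genes were covered. TRIML1, a tripartite motif gene, was covered at 94.3%, 72.1%, 94.3% and 0% with LmnB1, and at 0%, 0%, 50.02% and 0% with mCherry. Its neighbour TRIML2 had 100%, 72.7%, 79.7% and 0% with LmnB1, against 80.3%, 91.3%, 100% and 100% with mCherry. The pair thus leaned in opposite directions, by 52.7 and -29.8 points, and neither passed (limma adjusted p = 0.912 for both). The pluripotency gene ZFP42 was covered at 50 ± 57.7% with LmnB1 and 25 ± 50% with mCherry, being at 100% or 0% in each library. FRG1 and FRG2, nearest the repeats, were at 0 in all 8 libraries, and since both have near-identical copies elsewhere a 0 there is uncertain too.

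Among genes studied for their response to telomere length, ISG15, AGRN and BET1L were at 0 in all libraries, while TERT, the telomerase catalytic subunit, had 7.76 ± 9.01% with LmnB1 and 12.4 ± 14.6% with mCherry. The 6 alpha-globin locus genes at 16p had no covered base. Of 12 developmental transcription factor genes 10 were at 0, FOXC1 among them, and DMRT2 and IRF4 were covered in LmnB1_6 replicate 1 alone, at 44.4% and 42.9%. Of 6 beta-defensin genes at 20p 5 were at 0. Over all 1363 end genes 78.1% had no covered base in any library, so counts at 0 in these short lists are read as nothing particular to them. DEFB125 had 18.8 ± 22.2% with LmnB1 and 24.1 ± 48.3% with mCherry. Among 6 mucin genes MUC5AC had 15.6 ± 10.9% with LmnB1 and 29.5 ± 23.6% with mCherry, and MUC4 had 20.7 ± 13.1% with LmnB1 and 17.3 ± 12.1% with mCherry. MUC5B was covered in LmnB1_16 replicate 1 alone, at 35.8%, MUC6 reached 8.37% in 3 libraries, and the other 2 mucin genes were at 0. Of 10 genes in subtelomeric duplicated segments only IQSEC3 was covered, at 6.94 ± 8.32% with LmnB1 and 7.39 ± 8.90% with mCherry. The other 9 were at 0, and for FRG2, WASHC1 and the OR4F genes among them near-identical copies leave that 0 uncertain. At 14q the end window holds 48 V segments of the immunoglobulin heavy chain locus, which were covered on average at 89.6%, 87.4%, 75% and 62.5% in the LmnB1 libraries and 85.4%, 85.4%, 66.7% and 54.2% in the mCherry libraries.

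For gene bodies, as for windows, the constructs were not told apart at the ends. In the table of 2283 genes with a mean of at least 5%, limma called 0.219% higher and 0.0876% lower with LmnB1, and none of the 215 end genes among them was called, with 9 of the 215 at an unadjusted p under 0.05, against 82 of all 2283. Groups that did not overlap with LmnB1 above were found for 2.72% of the 2283 genes and, at the ends, for 4 of 215. Groups with LmnB1 below were found for 0.394% of the 2283 and for 0 of the end genes. The 4 were covered in part. VIPR2, a receptor for vasoactive intestinal peptide (chr7:159028175-159144867), had 11.0%, 5.03%, 15.3% and 8.46% with LmnB1, and 0%, 1.60%, 1.60% and 0% with mCherry. NDUFA10, a subunit of mitochondrial complex I (chr2:239892442-240025342), had 12.04%, 6.02%, 6.77% and 15.05% with LmnB1, and 1.17%, 2.68%, 0% and 0% with mCherry. WDR27, a WD-repeat gene (chr6:169426420-169702029), had 40.1%, 41.9%, 45.2% and 36.1% with LmnB1, and 33.6%, 31.4%, 34.7% and 28.9% with mCherry. ZNF124 (chr1:247121975-247172379) had 77.4%, 79.4%, 77.4% and 77.4% with LmnB1, and 75.4%, 71.4%, 69.4% and 69.4% with mCherry. Their differences of 9.16, 9.01, 8.71 and 6.45 points had a limma adjusted p of 0.909 each. With the library mean subtracted they came to 2.43, 2.28, 1.98 and -0.279 points.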

How the data were processed

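Per the submitters' processing notes the tools were SICER, DiffBind 3.0.15, DESeq2 and deepTools and the builds GRCh38 and hg38 (for the aligner: not given in the sources used here). Domains were called per library against the same input. Each deposited list gives per domain a count of H3K9me3 reads, a count of input reads, a p-value with its false-discovery adjusted p-value, the log2 enrichment over input, and a score of 100 times that log2 value, all computed by the authors. The lowest deposited log2 was just above 0.6, so an unlisted stretch may lie just below that limit, and counts exist for listed domains only, so no count model was run.

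Covered percent was computed per window, gene and library. Windows and genes with a mean of at least 5% were fitted genome-wide with limma 3.58.1 (R 4.3.3), clone as a random block, Benjamini-Hochberg threshold 0.05; on simulated data its adjusted p-values were too small where clones vary. Single values were tested with exact permutation or sign-flip tests. Replicate numbers do not pair the libraries: deviations of same-numbered libraries did not all correlate positively. Genes, and promoters, came from RefSeq tables of GRCh38.p14. Genes named are those past a threshold or with non-overlapping groups, the longest of those covered at 90% or more in all 8 libraries, and the members of fixed lists with a mean of at least 5%, with the 4q35 and telomere-position genes; CDH4, OR2T3, OR2T27, OR14I1, OR2L8 and the untouched neural genes were added after their values were seen. Members and lists were chosen with earlier results of these data known. Alternatives covered window size, list depth, joining, length, the clone block and leaving out libraries. Python 3.11.15 was used.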

Additional observations from a re-analysis of the deposited data

Results flagged for a closer look

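Of 78 groups of 4 libraries examined for a value far from the other 3, 4 held one, and chance gives about 1 in 20. In LmnB1_6 replicate 2 the median member length was 35 kb, while the other LmnB1 libraries had 9 to 11 kb. Outside the members, on the same chromosomes, its median was 41 kb, against 8 to 12 kb in those libraries. The same library covered 89.8% of 3p, against 99.3% to 99.5% in the other LmnB1 libraries, and 25.8% of 8p, against 44.7% to 47.2%. In mCherry_4 replicate 2 13q was covered at 17%, against 30.6% to 31.0% in the other mCherry libraries. LmnB1_6 replicate 2 had 4467294 reads in all its listed domains and the other LmnB1 libraries 9029907 to 10321442, a sum that also depends on how much was listed. Its depth relative to input, 0.902, lay within the 0.880 to 1.01 of those libraries. Its median log2 enrichment over the whole list was 0.702, against 0.886 to 1.15 in them. For mCherry_4 replicate 2 this median was 0.722, against 0.849 to 0.877 in the other mCherry libraries. The part of these measures in the flagged values was not tested.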

How the results depend on the processing

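Ends exceeded the rest of the chromosomes under every setting run, by 4.58 to 10.6 points. All of these settings kept the q windows ending on a listed domain. For genes covered at 50% or more the excess was 0.4064 points without 1q. Differences in member coverage, share, number and median length changed sign with the setting. With windows of 5 Mb the number differed by -7.75 and the p minus q difference was 1.206. With the highest-scoring 50% of each list the share differed by 1.187. With lists of equal covered length coverage differed by -0.4712, the share by 0.6056 and the number by -32.5. With domains of at least 10 kb coverage differed by -0.07475, the number by -83 and the median length by 0.25 kb. Leaving out 1 library moved coverage between -1.831 and 1.625 points (lowest without mCherry_4 replicate 2, with -0.04007 and -0.1003 without either replicate 1 of an LmnB1 clone) and the number between -22.58 and 47.08. limma called 5 windows without the clone block, 5 bins of 500 kb, 2 windows with domains under 10 kb apart joined, 1 with the library mean subtracted, and 0 to 1 with 1 library left out. It called 8 to 59 genes with 1 library left out (59 without LmnB1_6 replicate 2, 15 without mCherry_4 replicate 2, 11 without either mCherry_3 replicate), against 7 with all, and none of the end genes at full data. End genes called elsewhere were FAM110C with lists of equal covered length, OR2T3, OR2T27, OR14I1, ZGPAT, ZNF721 and NELFA without LmnB1_6 replicate 2, and SOX1 without mCherry_3 replicate 1. With the replicate block, which the labels do not make a pairing, coverage gave an exact permutation p of 0.944, the share 0.611, the number 0.833 and the length 0.611, and limma called 0 windows and 7 genes; it changed no call.

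Named ends and genes, none called, also changed sign. With the library mean subtracted the differences were -1.466 at 3p, -0.279 for ZNF124, -5.311 for GCSAML, -5.668 for ZNF732, -4.669 for ZNF10, -1.896 for ZNF84, -4.497 for ZNF891, -3.274 for MUC4, -2.349 for CHL1 and -5.202 for CNTN6. With the highest-scoring 50% they were -5.008 at 4q, 18.82 for DEFB125, 0.5789 for MUC5AC, -2.89 for CHL1, 8.636 for MYT1L and 2.386 for TERT, and with equal covered length -8.1 at 4q, 0.5789 for MUC5AC and 2.386 for TERT. With joined domains CNTN6 gave -2.731. Leaving out 1 library put the differences between -0.04959 and 13.35 at 2p, between -20.29 and 18.82 for DEFB125, between -1.788 and 6.206 for MUC4, between -1.977 and 5.782 for CNTN6, between -17.71 and 1.207 for MYT1L, between -6.034 and 3.219 for SNTG2, and between -4.949 and 3.266 for IQSEC3. The causes were not tested. Depth limits what an unlisted stretch can show.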
